A study of Drosophila melanogaster with 4 samples.

Results

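The regions described here are 1246 H3K4me3 peaks of 500 to under 1000 bp in Drosophila melanogaster embryos, out of 6715 peaks on the 6 chromosome arms 2L, 2R, 3L, 3R, 4 and X and 7425 peaks in the whole list. They were chosen by width alone, counted as end minus start plus 1 base, and no filter on low values was applied. They made up 18.6% of the arm peaks (exact 95% binomial interval 17.6 to 19.5) and 8.01% of the bases that arm peaks covered. H3K4me3 is histone H3 trimethylated at lysine 4. The study profiled it by ChIP-seq, in which chromatin is immunoprecipitated and its DNA sequenced, in 2 ChIP libraries, made with a rabbit polyclonal antibody, and set them beside 2 libraries of input DNA, which is chromatin sequenced without the antibody step. Both groups came from whole embryos aged 8 to 16 h and fixed in 1.8% formaldehyde for 15 min.

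Flies of both groups were of the strain Y cn bw sp, and ChIP and input shared every allele. Per the labels these were y[1] and oc[R3.2], then cn[1], bw[1], sp[1], Gr22b[1], Gr22d[1] and CG33964[R4.2], and then lab[R4.2], Rh6[1], LysC[1], MstProx[1] and GstD5[1]. The labels give neither the sex of the embryos nor the number pooled. A whole embryo mixes all tissues, so a peak that few cells carry and a peak that is weak in every cell cannot be told apart.

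H3K4me3 is laid down by COMPASS-type methyltransferase complexes, among them that of Set1 in flies. It is bound by effector proteins with PHD fingers, among them a subunit of the general factor TFIID. At an active promoter it typically covers the first nucleosomes after the transcription start, with a nucleosome-poor gap at the start itself. Broad stretches of the mark have been described at strongly transcribed and at developmentally regulated genes, and enhancers carry mostly H3K4me1 with little H3K4me3. A peak under 1 kb may thus be a short marked promoter on its own or part of a wider marked region that the peak caller reported in pieces. The deposited list gives position, width and score. Gene starts of its release were not used here, so no gene is named and no peak is called a promoter or an edge.

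Each peak's score is a value from the authors, of unknown scale, and it was used to describe and rank peaks within this list. Neither scores nor positions carry a library, so replicate spread and depth are unknown. Width chose the regions, and score comes from the same peak call, so the scores below are descriptions without a test. The exact 95% intervals of medians, shares and counts are over peaks, treat them as independent and cover counting error only.

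Peaks of 500 to under 1000 bp mostly scored low but reached nearly the top of the list. Their median score was 30.5 (28.2 to 32.8), the quartiles were 17.3 and 64.4, and the range ran from 6.80 to 485.47. Peaks under 500 bp had a median of 11.04 and peaks of 1000 to under 2000 bp a median of 148.0. The spread was also wide: the quartiles lay 1.90 apart on the log2 scale, against 0.61 in peaks under 500 bp and 1.48 in peaks of 1000 to under 2000 bp. A total of 404 of the 1246, or 32.4%, scored 50 or more. The same was true of 0.796% of peaks under 500 bp and 87.3% of peaks of 1000 to under 2000 bp. The 176 that reached 100 had a median width of 870.5 bp, and the 39 that reached 200 had one of 883 bp.

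The width limits did not fall on a step in the scores. The 37 peaks of 500 to under 510 bp had a median score of 17.7, and the 26 peaks of 490 to under 500 bp just outside had 15.5. At the upper limit the 26 peaks of 990 to under 1000 bp had a median of 64.8, and the 21 peaks of 1000 to under 1010 bp just outside had 66.9.

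In bins of 0.5 the scores formed a single hump with a long upper tail, and no clear low and high set was found. With log2 bins of 0.5, the fullest bin held 213 peaks, at scores from 16 to 22.6. The count then declined without a dip, to 123 peaks at scores from 45.3 to 64 and 120 peaks at 64 to 90.5. In finer bins of 0.25 a shallow dip appeared. There were 58 peaks at scores from 45.3 to 53.8, with an exact Poisson 95% interval of 44.0 to 74.98, and 74 at scores from 64 to 76.1 (58.1 to 92.9). The intervals overlap, but the bins were picked as emptiest and fullest, and whether the dip exceeds counting error was not tested. At 1 kb or more from a wide peak these bins held 33 (22.7 to 46.3) and 48 (35.4 to 63.6). Subsets gave dips of the same kind even in bins of 0.5, each with intervals that overlap. At 1 kb or more from a wide peak there were 74 peaks at 45.3 to 64 (58.1 to 92.9) and 78 at 64 to 90.5 (61.7 to 97.3), and at 100 to under 500 bp from one 26 (17.0 to 38.1) and 31 (21.1 to 44.0). A score of 50 therefore serves below only as a fixed mark for low (67.6% of the peaks, 64.9 to 70.2) and high (32.4%), not as a boundary found in the data.

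Peaks of 500 to under 1000 bp near a wide peak scored lower than those away from one. Under 1 kb from the nearest peak of 1 kb or wider, measured between the facing edges, lay 575 peaks, or 46.1% (43.35 to 48.96). The share was also 46.1% in peaks of 1000 to under 2000 bp, 56.9% in peaks under 500 bp and 52.0% over all arm peaks. The median score of the 575 was 22.01 (20.1 to 25.2), against 35.0 (32.9 to 38.2) in the 671 peaks at 1 kb or more. The shares with a score of 50 or more were 27.0% near a wide peak and 37.1% away from one. The near set had its fullest 0.5 bin at scores from 11.3 to 16, with 127 peaks, and the far set at 22.6 to 32, with 114 peaks. The near median was the lower one on each of the 6 arms, with differences of -9.23 on 2L, -11.1 on 2R, -11.2 on 3L, -17.9 on 3R, -9.95 on chromosome 4 and -12.3 on X. On chromosome 4 only 2 near peaks and 5 far peaks stand behind that value. Over all arms the difference was -12.96, and it was -1.40 when the lowest 25% of arm peaks by score, those at 17.82 or less, were left out. That step acts on the score itself and removed 217 of the near and 118 of the far peaks.

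**Figure D1:**
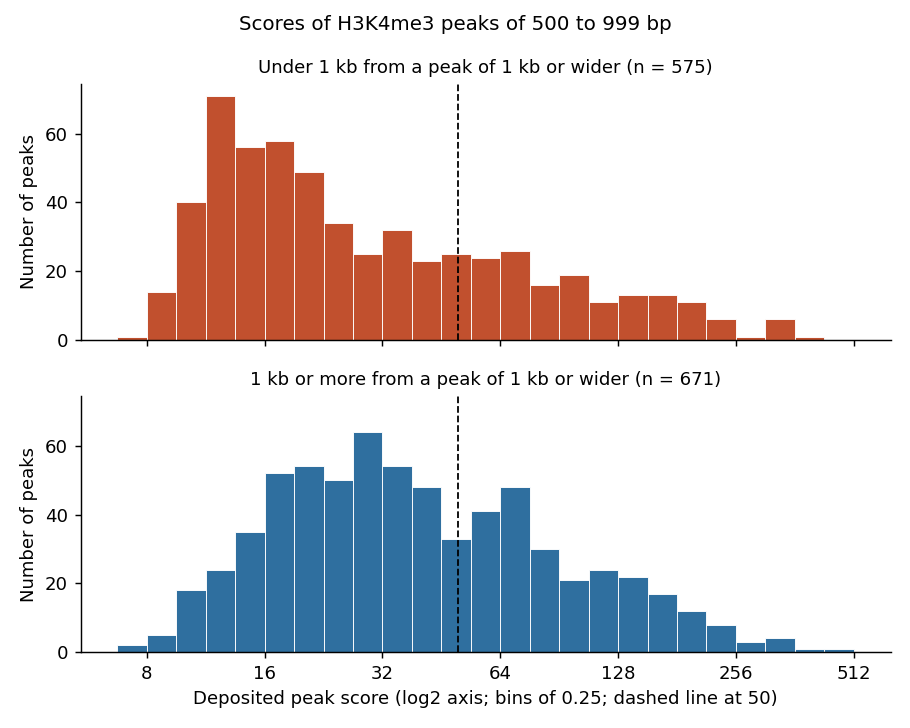
Histograms of the deposited score (log2 axis, bins of 0.25, number of peaks on the vertical axis) for the 575 peaks of 500 to under 1000 bp under 1 kb from a wide peak (top) and the 671 at 1 kb or more (bottom), with a dashed line at a score of 50. The near set is fullest at 11.3 to 13.5, with 71 peaks and a long tail, and the far set at 26.9 to 32, with 64 peaks; its dip at 45.3 to 53.8 holds 33 peaks, against 48 at 64 to 76.1.

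Peaks at the shortest gaps mostly scored low, and the relation of score to distance was not a steady slope. No gap to a wide peak was under 50 bp. The 81 peaks under 100 bp from a wide peak had a median score of 16.5 (14.6 to 18.4) with quartiles of 13.4 and 20.9, and 7 of them reached 50. They held only 74 of the 842 peaks below 50. From 100 to under 200 bp the lower quartile was nearly the same, at 13.6, but the upper quartile was 63.2 and 35 of 122 peaks reached 50. The median was 20.3 there, 25.1 at 200 to under 500 bp and 32.9 at 500 to under 1000 bp. At 1000 to under 2000 bp it was again lower, at 24.4 (19.4 to 28.4), and 20 of those 89 peaks reached 50. The medians were 42.2 at 2000 to under 5000 bp, 38.2 at 5000 to under 10000 bp and 34.2 at 10000 bp or more, with intervals that overlap. Over all 1246 peaks Spearman's rho between score and distance was 0.227. It was 0.167 within the near set and 0.046 within the far set. These rho values describe peaks that share 1 call, are weak, and carry no p.

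**Figure D2:**
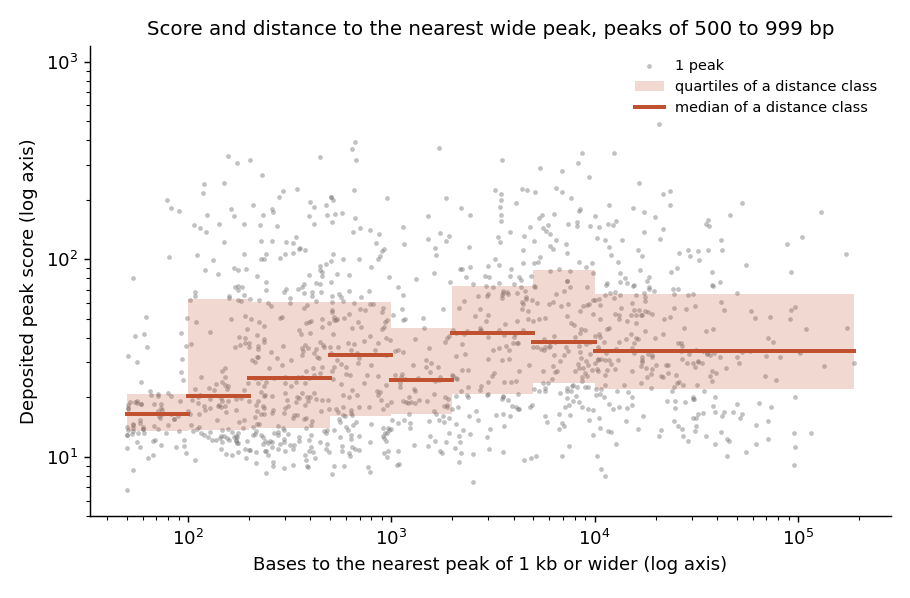
Each point is 1 peak of 500 to under 1000 bp, with the bases to the nearest peak of 1 kb or wider on the horizontal log axis and the deposited score on the vertical log axis; lines are medians and bands are quartiles of each distance class. The band of the class under 100 bp is narrow and low (13.4 to 20.9), while that at 100 to under 200 bp already reaches 63.2.

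In steps of 50 bp up to 500 bp, the share of high scores was lowest at the shortest gaps. At 50 to under 100 bp 8.64% of the peaks scored 50 or more, at 100 to under 150 bp 24.6% (14 of 57), and at 150 to under 200 bp 32.3% (21 of 65). The shares below 50 were 91.4% (83.0 to 96.5) at 50 to under 100 bp and 75.4% (62.2 to 85.9) at 100 to under 150 bp. Their intervals overlap. The 6 steps from 200 to under 500 bp lay between 23.8% and 36.7%, on 22 to 63 peaks each. Of all 39 peaks that reached 200, 0 lay under 100 bp from a wide peak and 18, or 46.2% (30.1 to 62.8), lay under 1 kb. Among the 176 that reached 100, 4 lay under 100 bp from a wide peak and 75, or 42.6% (35.2 to 50.3), under 1 kb. Over all peaks of 500 to under 1000 bp the share under 1 kb was 46.1%, which lies within both intervals. The share under 100 bp was only 6.50% over all these peaks, and whether 0 of 39 falls short of it was not tested.

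Width moved with score and, slightly, with distance. The near set had a median width of 714 bp and the far set one of 736 bp. Spearman's rho over the 1246 peaks was 0.463 between score and width and 0.063 between width and distance. Within 100 bp classes of width the near median was lower in the 4 classes from 500 to under 900 bp, at 15.3 against 22.6, 18.3 against 29.2, 25.6 against 37.7 and 37.0 against 59.3. The intervals of near and far were apart in the first and second of these classes and overlapped in the other two. In peaks of 900 to under 1000 bp the medians were 61.3 near and 59.1 away from a wide peak, and their intervals overlap. Peaks at the shortest gaps had the lower median in all 5 classes, with intervals that were apart in the 3 classes from 600 to under 900 bp and overlapped in the lowest and the highest class. For peaks under 100 bp from a wide peak the medians ran from 14.4 at 500 to under 600 bp to 23.8 at 900 to under 1000 bp, and for all others from 18.5 to 60.8. The widest of these classes rests on 7 peaks under 100 bp from a wide peak.

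**Figure D3:**
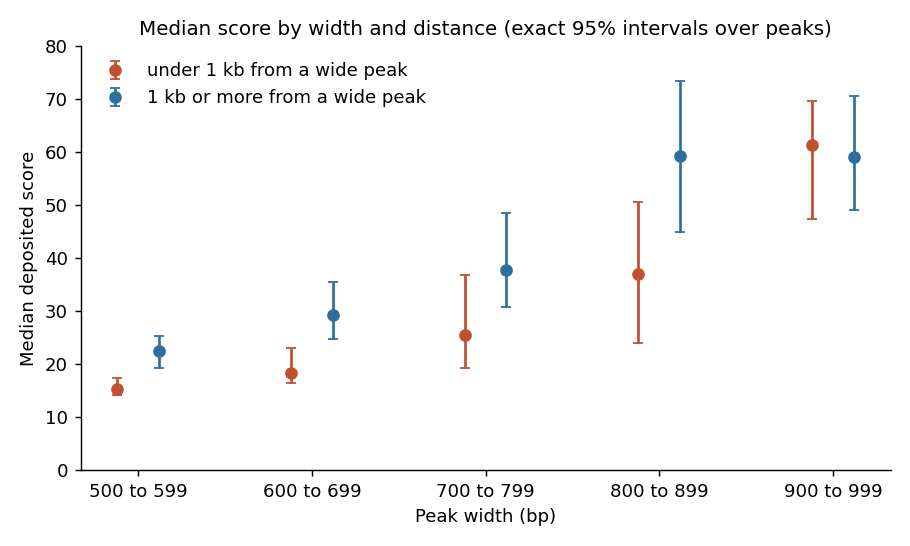
Median deposited score (vertical axis) by width class in bp (horizontal axis) for peaks under 1 kb from a wide peak and for peaks at 1 kb or more, with exact 95% intervals of the median over peaks. The near medians are below the far medians in the classes under 900 bp, and the medians are 61.3 and 59.1 at 900 to under 1000 bp.

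The other width classes did not show the same size of difference. In peaks of 500 to under 1000 bp the near median was 0.629 times the far one. The ratio was 0.923 in peaks under 500 bp, with medians of 10.7 near and 11.6 away, and 1.17 in peaks of 1000 to under 2000 bp, with medians of 158.7 near and 136.1 away. The direction was thus turned round in the next wider class. In peaks of 2000 bp or wider the ratio was 1.02, with medians of 268.45 near and 264.24 away and intervals that overlap. Peaks under 500 bp include the lowest scores of the arms, and their quartiles lay only 0.61 apart on the log2 scale. Their near median had little room to be lower, so their ratio cannot show whether distance mattered less there. These ratios depend on the unknown scale of the score, and the difference between the classes was not tested.

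Beside a wide peak, most peaks of 500 to under 1000 bp had a small share of its score. For the 575 near peaks the median was 12.6% of the score of the nearest wide peak, with quartiles of 6.15% and 31.1%, and 405 of them, or 70.4%, were under 25% of it. A total of 39, or 6.78%, scored above their wide neighbour. Of the 155 near peaks that reached 50, 36 scored above it, and of the 420 below 50, 3 did. The neighbours' median score was 230.6 beside peaks that reached 50 and 230.9 beside peaks below it. The 671 peaks at 1 kb or more from a wide peak, with a median of 35.0, also scored far below these values. Over all arm peaks score rose with width (Spearman's rho 0.864). A small share of a wide peak's score was thus not particular to peaks beside one. The neighbours' median widths were 2023 and 2216 bp. The score of a small peak hardly followed that of its wide neighbour. Spearman's rho between both was -0.014 over the 575, and the median score of the small peaks was 23.6, 20.7, 20.0 and 23.7 in 4 classes of near equal size ordered from low to high neighbour score. The wide peak lay at lower coordinates in 289 cases and at higher coordinates in 285, and the small peaks had median scores of 23.3 in the first case and 20.9 in the second.

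Peaks joined over gaps under 1 kb form chains, and median scores differed between some places in a chain. Place rests on the same gaps as distance and was not compared at equal distance. Of the peaks in chains with a wide peak, 91.1% lay under 1 kb from one. The median gap to any peak was 149.5 bp inside such chains and 302 bp at their ends. Inside a chain with a wide peak stood 216 of the 1246 peaks, with a median score of 19.2 (17.7 to 21.4). At the end of such a chain stood 415, with 25.3 (21.9 to 30.1). A further 140 were in chains without a wide peak, with a median of 40.6 (32.96 to 49.8). Alone stood 475, or 38.1%, with 36.1 (33.6 to 40.0) and a median distance of 6044 bp to the nearest peak of any width. The intervals of peaks alone and of peaks in chains without a wide peak overlap. The share alone was 36.1% in peaks of 1000 to under 2000 bp, 25.7% in peaks under 500 bp and 30.3% over all arm peaks. The 69 peaks with a wide peak under 1 kb on both sides had a median of 18.2 (15.7 to 23.7). The 506 with one on a single side had 23.5 (20.5 to 26.7), and these intervals overlap. Where a chain held a wide peak, the small one had the highest score of the chain in 26 of 631 cases, or 4.12%. In chains without a wide peak it did so in 96 of 140, where by construction no peak reached 1 kb.

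**Figure D4:**
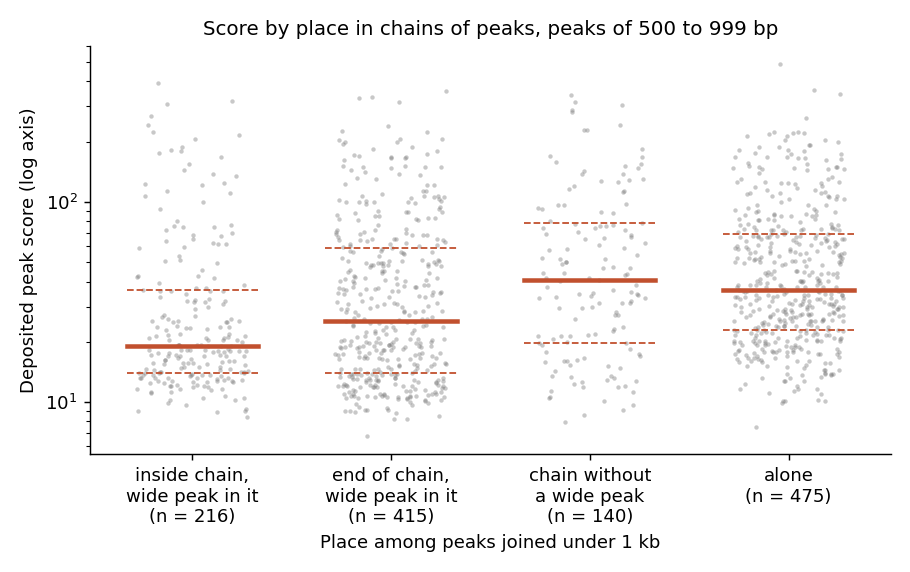
Deposited score (log axis) of each peak of 500 to under 1000 bp by its place among peaks joined over gaps under 1 kb; points are peaks, spread sideways at random, solid lines are medians and dashed lines quartiles. The 216 peaks inside chains with a wide peak have the lowest median, 19.2, and the highest scores of the groups run from 343.56 to 485.47.

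Solitary peaks had overlapping score intervals at both degrees of isolation compared. The 169 peaks at 10 kb or more from any other peak had a median score of 34.2 (30.8 to 40.0), and the other 306 that stood alone had 37.7 (33.9 to 43.5). The shares that reached 50 were 36.7% and 39.5%. The highest-scoring peak of 500 to under 1000 bp was among the solitary ones, at 3R 21808610 to 21809555, with 946 bp, a score of 485.47 and 20479 bp to the nearest peak. At 2L 3144896 to 3145828 a peak of 933 bp scored 345.68 with 12530 bp to the nearest peak. At 2R 5876578 to 5877498 a peak scored 242.38 at 16483 bp from the nearest wide peak, though a smaller peak lay 475 bp away.

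Strong and weak peaks of this width both occurred right beside wide ones. The peak at 3R 19715989 to 19716871 scored 332.81 at 157 bp from a wide peak of 301.89, and was the higher one. At 2L 10975552 to 10976495 the score was 306.98 at 175 bp from a wide peak of 377.41, and at 3L 7968414 to 7969290 it was 242.71 at 151 bp from one of 265.58. At the other end, 3R 11615337 to 11615856 scored 6.80, the lowest of the 1246, at 50 bp from a wide peak of 339.08. It was followed among those under 200 bp by 3R 26282823 to 26283440, with 8.53 at 54 bp from a wide peak of 188.66, and by X 14122687 to 14123259, with 9.65 at 108 bp from one of 242.86. Low scores were not limited to such places. The next lowest of all were 3L 16767603 to 16768143, with 7.48 and no peak nearer than 2524 bp, and 2R 19569718 to 19570220, with 7.98 at 11250 bp from a wide peak.

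By arm, the highest peaks of this width also differed in setting. On 2L it was 9758284 to 9759114, which stood alone with 363.27, and the nearest wide peak, 1722 bp away, scored only 28.47. On 3L it was 12798901 to 12799720, with 392.66 in a chain of 3 peaks, 664 bp from a wide peak of 342.77. On 2R 5935312 to 5936215 scored 318.69, and its wide neighbour at 674 bp scored 466.92. On X 14979039 to 14979941 scored 268.19 at 231 bp from a wide peak of 156.94. On chromosome 4 691650 to 692647 scored 167.07 at 5530 bp from a wide peak. Thus the highest was above its nearest wide peak on 2L, 3L, 3R and X, and below it on 2R and 4.

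The peaks farthest from any wide peak were weak to middling. On X, 12097942 to 12098790 lay 174853 bp from any peak and scored 44.91. On 2L, 17751714 to 17752393 lay 189221 bp from a wide peak and scored 29.75. The value was 28.67 for 3L 23573118 to 23573819, at 134259 bp, and 13.16 for 3R 2757766 to 2758324, at 115686 bp. On 2R 9224048 to 9224810 scored 57.24 at 97049 bp, with another small peak only 144 bp away, and on chromosome 4 924416 to 925136 scored 26.05 at 25096 bp.

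The share of peaks that were 500 to under 1000 bp wide had overlapping intervals on the 5 large arms. It was 20.2% on X (240 of 1189, 17.9 to 22.6), against 18.3% on the large autosomal arms 2L, 2R, 3L and 3R together (17.3 to 19.4, of 5449 peaks). Among the autosomal arms it lay between 17.2% on 3R (15.4 to 19.1) and 18.9% on 2R (16.8 to 21.1). On chromosome 4, the small dot chromosome, 7 of 77 peaks, or 9.09%, had this width, with an interval of 3.73 to 17.8 that ends just below that of X and overlaps those of the other 4 arms. For each wide peak there were 0.340 peaks of 500 to under 1000 bp on X, 0.311 on the large autosomal arms and 0.149 on chromosome 4.

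Scores and distances of these peaks also had overlapping intervals between X and the large autosomal arms. The median score was 31.8 (27.4 to 37.0) on X and 29.8 (27.7 to 32.8) on the large autosomal arms, with 35.4 (29.8 to 38.3) on 2L and 25.9 (23.7 to 31.3) on 3R at the ends. On X 35.0% reached 50, and on the large autosomal arms 31.9%. The share under 1 kb from a wide peak was 48.8% on X and 45.6% on the large autosomal arms. Among the 5 large arms it was lowest on 2L, at 40.6% (34.1 to 47.4), and highest on 3R, at 49.6% (43.6 to 55.7), with intervals that overlap. 3R also held 29 of the 81 peaks under 100 bp from a wide peak, or 35.8% (25.4 to 47.2), beside 21.99% of all 1246 peaks and 24.1% of the wide peaks. 3R is named here as the arm with the most such peaks, so its share is at the upper end by choice.

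**Figure D5:**
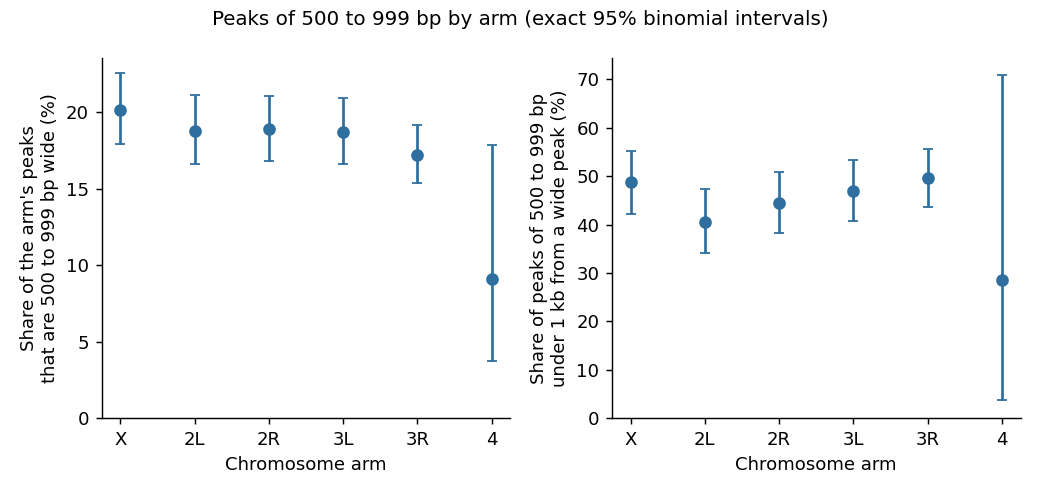
Left, share of each arm's peaks that are 500 to under 1000 bp wide; right, share of those peaks under 1 kb from a wide peak; both in percent with exact 95% binomial intervals. The 5 large arms lie between 17.2% and 20.2% (left) and between 40.6% and 49.6% (right), and chromosome 4 rests on 7 peaks.

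Along the arms the counts varied. The complete 1 Mb bin with the most peaks of this width was 9 to 10 Mb on 2R, where 27 of 71 peaks, or 38.0%, were 500 to under 1000 bp wide. On X 23 of 87 peaks between 11 and 12 Mb had this width, and 12 of these 23 reached 50. Of these 12, 7 formed a regular row from 11481317 to 11494720, with starts 2055 to 2121 bp apart, widths of 650 to 830 bp and scores of 52.59 to 85.35. No other 4 or more successive peaks of this width on the 6 arms had starts spaced evenly to within 100 bp and under 10 kb apart. Without that row the bin held 16 of 80, with 5 that reached 50. Whether its sequence is repeated, so that reads could map to several of its peaks, was not tested. Between 10 and 11 Mb on 2L it was 23 of 114, and between 1 and 2 Mb on 3R 19 of 92. On 3L 2 bins held 17 each, the first of them from 8 to 9 Mb with 84 peaks in all. The median bin held 9 to 11 peaks of this width on the 5 large arms. The fullest bins were picked as such, so their counts are at the upper end by choice.

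Of the 1246 peaks, 1068 had no other peak of this width next to them within 1 kb. There were 78 pairs, 6 runs of 3 and a single run of 4. That run covered 3310 bp at 2L 7821499 to 7824808, and its scores in order of position were 100.46, 37.19, 25.08 and 17.85, in a chain that also held 2 wide peaks. Some peak lay under 1 kb away in 771 cases, and the nearest was a wide one in 474 of these, or 61.5%, one of 500 to under 1000 bp in 143, or 18.5%, and one under 500 bp in 154, or 20.0%. Over all arm peaks with a neighbour under 1 kb these shares were 61.4%, 16.0% and 22.6%, so the split was close to that of the whole list. The median scores of these sets were 23.9, 25.1 and 26.0, with intervals that overlap, and 36.1 in those with no peak under 1 kb.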

How the data were processed

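The submitters' processing notes name BWA, MACS2 and CASAVA (1.7.0.2 and 1.7.0.3) and the build BDGP5. Their order and settings, and how libraries were combined, are not given in the sources used here. Coordinates follow FlyBase release 5, per the file headers, and the list names MACS as caller. The deposited score per peak was used unchanged. Its scale is not stated, so sizes of score differences depend on it, while ranks do not. The gene table at hand is of release 6, and positions were not moved, so no gene and no sequence is given.

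Python 3.11.15, numpy 2.4.6, pandas 2.3.3, scipy 1.17.1 and matplotlib 3.10.9 were used. Distances are bases between facing edges. Intervals are Clopper-Pearson for shares, binomial order statistics for medians and exact Poisson for counts. A split into low and high scores needed, in bins of 0.5, a bin emptier than both modes. None was found over the whole set, and the planned fixed value of 50 was used in its place. Distances and this split rule were tested on simulated data. The simulated scores had either 1 mode or modes farther apart than the fullest bins below and above 50 here. The check therefore does not show whether the rule would find a shallow split. Regions named by position follow a rule: the highest of each arm, the 3 lowest, the 3 highest 10000 bp or more from a wide peak, the 3 highest and 3 lowest under 200 bp from one, the farthest of each arm, the longest run and the fullest 1 Mb bins. The regions, classes and rules were chosen with earlier results of these data known. The 50 bp steps, the score marks of 100 and 200, the nearest-peak classes, the search for regular rows and the classes of neighbour score were added after the values were seen.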

Additional observations from a re-analysis of the deposited data

How the results depend on the processing

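No paired analysis was possible because no column of the list belongs to a replicate, so no replicate could be omitted either. Of 35 alternatives 25 stayed within the limits set for them, 10 moved past these and 0 changed sign; 9 were added after the data were seen. The number of peaks of 500 to under 1000 bp, 1246, became 673 when peaks closer than 500 bp were merged first. The share below a score of 50, 67.6%, became 55.7% without the lowest 25% of arm peaks by score and 56.5% over all sequences of the list. The share under 1 kb from a wide peak, 46.1%, became 36.4% where wide meant 1500 bp or more, 39.0% from the peak's centre and 39.2% without the lowest 25%. The near minus far difference in median score, -12.96, was -1.40 without the lowest 25% (which removes 37.7% of the near and 17.6% of the far peaks) and -20.7 for a limit of 100 bp within width classes. Without any 1 large arm it lay between -14.0 and -10.8. The share with the highest score of their chain was 47.9%, or 597 peaks. Of these, 475 stood alone and were thus the highest by construction. The share was 59.6% and 41.3% for chains joined under 500 and under 2000 bp, limits that also change how many peaks stand alone. The X minus autosome difference in share, 1.85 percentage points, lay between 0.762 and 2.03. Depth is unknown, so marked places below the authors' threshold were not detectable here.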

Other observations

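Peaks of 500 to under 1000 bp also occurred off the 6 arms, where 318 were called, 297 of them on Uextra, a collection of unplaced low-quality sequence. Those off the arms had a median score of 129.5 (119.2 to 140.3), against 30.5 in the 1246 peaks of the same width on the arms, and 86.8% of them reached 50. Only 1 of the 318 lay under 1 kb from a wide peak. How the lengths of the unplaced pieces bear on the widths called there, and on the distances to a wide peak, was not tested.

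On mitochondrial DNA, which has no histones, 1 peak was called, with a score of 11.05. Of the 1246 arm peaks of 500 to under 1000 bp, 70, or 5.62%, scored no higher than that, as did 757 of the 1508 arm peaks under 500 bp, or 50.2%, and 0 of the 1947 arm peaks of 1000 to under 2000 bp. These counts rest on 1 mitochondrial peak, and whether its score marks background on the arms was not tested.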
